A study of Saccharomyces cerevisiae with 20 samples.

Results

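Biotin synthesis and uptake in budding yeast were followed through 5 genes: BIO2, BIO3, BIO4 and BIO5, which serve the last steps of biotin synthesis, and VHT1, which encodes the plasma membrane biotin transporter. The genes were chosen by name, as the rows of the count table with the systematic names YGR286C, YNR058W, YNR057C, YNR056C and YGR065C. All 5 were found among the 7127 genes of the table, and all 5 passed the filter on low counts that kept 6119 genes. The data are 20 RNA-seq libraries of budding yeast (Saccharomyces cerevisiae), with 4 libraries per strain. The strains compared were W303 (mating type a; a mutant leu2 allele and can1-100, his3-11,15, trp1-1 and ura3-1), RM11-1a (mating type a; ura3Delta0, leu2Delta0 and HO::kanMX), D273-10B (mating type alpha; mal), CEN.PK2 (mating type a; MAL2-8c, SUC2, trp1-289, ura3-52, leu2-3_112 and his3Delta1) and BY4741 (mating type a; ura3Delta0, met15Delta0, leu2Delta0 and his3Delta1). Every strain grew untreated in synthetic complete glucose medium at 30 °C and was harvested in early exponential phase, at an optical density of 0.8 to 1.1. The labels give no biotin content of the medium. D273-10B is the one strain labelled as mating type alpha, so mating type and strain background cannot be told apart for it.

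Biotin is the cofactor that carries carboxyl groups in carboxylases such as acetyl-CoA carboxylase and pyruvate carboxylase. Many laboratory yeast strains lack the first steps of its synthesis and depend on biotin, or on an intermediate, from the medium. Bio5 imports the intermediate keto-aminopelargonic acid (KAPA), the aminotransferase Bio3 turns it into diaminopelargonic acid with S-adenosylmethionine as amino donor, Bio4 closes dethiobiotin, and the mitochondrial iron-sulfur enzyme Bio2 inserts the sulfur. Vht1 brings finished biotin into the cell together with protons. When biotin is scarce, the transcription factor Vhr1 activates VHT1 and BIO5 through a short palindrome-like element, here called the Vhr1 element.

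The upstream sequences of VHT1 and BIO5 are shown because they hold that element. It was searched on both strands as AATCA, then 8 bases of any kind, then TGATT or TGACT. The sequences are from the S288C reference genome (RefSeq, R64), written 5′ to 3′ on the strand of the gene and ending at the base before the start codon, with the element in capitals. The other strains may differ from them.

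VHT1, chrVII:619859-620158, minus strand: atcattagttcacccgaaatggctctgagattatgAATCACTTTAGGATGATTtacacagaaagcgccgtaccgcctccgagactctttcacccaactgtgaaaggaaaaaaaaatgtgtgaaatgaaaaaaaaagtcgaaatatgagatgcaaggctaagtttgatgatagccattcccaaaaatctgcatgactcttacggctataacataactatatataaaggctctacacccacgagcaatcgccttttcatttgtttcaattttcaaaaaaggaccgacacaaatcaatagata
BIO5, chrXIV:733304-733603, minus strand: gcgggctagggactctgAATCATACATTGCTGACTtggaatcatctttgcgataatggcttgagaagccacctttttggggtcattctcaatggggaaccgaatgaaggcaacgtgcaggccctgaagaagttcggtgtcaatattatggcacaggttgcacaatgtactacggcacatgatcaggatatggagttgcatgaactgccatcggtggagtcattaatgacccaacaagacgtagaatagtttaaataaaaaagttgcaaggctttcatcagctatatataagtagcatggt

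In the window of 250 bases before to 50 after the start, 10 of 6001 genes held a match (0.167%), and 0 of the 5 biotin genes did. With a window of 1000 bases before the start, tried after that result, 27 of 5996 genes held one (0.45%), and they included VHT1, BIO5 and BIO3. The VHT1 match lies between genes, 265 to 248 bases before the start. The BIO5 match lies 283 to 266 bases before the start, inside the coding sequence of BIO4. The BIO3 match is that same BIO5 site on the opposite strand, 722 to 705 bases from BIO3, so the 3 genes hold 2 sites in all. No match was found before BIO2 or BIO4, which says only that these letters are not in those windows.

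BIO3, BIO4 and BIO5 form a cluster on chromosome XIV. BIO5 (731618 to 733303) and BIO4 (733356 to 734069) lie on the minus strand, with 52 bases between them. BIO3 (734291 to 735733) lies on the plus strand and is divergent from BIO4. The 221 bases between BIO4 and BIO3 are printed next on the plus strand, because a single short region separates the starts of these 2 genes.

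BIO4-BIO3 interval, chrXIV:734070-734290, plus strand: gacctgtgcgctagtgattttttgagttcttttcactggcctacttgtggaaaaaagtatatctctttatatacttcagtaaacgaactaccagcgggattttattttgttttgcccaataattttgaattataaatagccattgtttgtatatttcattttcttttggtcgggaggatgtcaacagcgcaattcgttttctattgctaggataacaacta

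BIO2 (chromosome VII, 1063813 to 1064940, minus strand) lies 26000 bases from the right end of its chromosome, while VHT1 (chromosome VII, 618077 to 619858, minus strand) lies far from both ends. None of the 5 genes overlaps another annotated gene, and 0% of their 75-base windows occur elsewhere in the genome, so reads of this length are not shared with a copy in the reference.

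Total counts ran from 1311322 to 22979469 per library, and the counts behind the 5 genes differed accordingly. BIO2 had 94 to 899 counts in a library, BIO3 10 to 139, BIO4 23 to 390, BIO5 2 to 91 and VHT1 57 to 1175. Counting error alone, the square root of the count, was 10.5% to 70.7% of a BIO5 value. Levels are given as CPM, which are counts scaled to a common library total, after trimmed-mean (TMM) scaling. They are shares of the transcripts of a whole culture, so fewer expressing cells and less RNA per cell cannot be told apart. Library numbers start with 66, 69 or 74, and the labels do not say what these series are. Called differences, and those of the biotin genes that are discussed, are also given within a series where both strains have at least 2 libraries in it. LEU2 had 0 counts in every library of RM11-1a and BY4741, both labelled leu2Delta0. URA3, deleted in both by label, had 102, 75, 11 and 9 counts in RM11-1a and 9, 6, 2 and 29 counts in BY4741. The mating receptor gene STE2 was at 1.88 to 4.11 CPM in D273-10B. The library labelled RM11-1a replicate 2 stood apart, with 408 HO counts and 544 REE1 counts, where the other 3 RM11-1a libraries had 1 to 2 HO counts and 0 REE1 counts. Called differences with RM11-1a, and those of the biotin genes that are discussed, are therefore also given without it. CEN.PK2 replicate 4 stood apart too, with STE2 at 69.5 CPM against 240 to 404 CPM in the other CEN.PK2 libraries. D273-10B replicate 1 stood apart with HO at 65.1 CPM and the alpha factor gene MF(ALPHA)1 at 1830 CPM, where the other 3 D273-10B libraries had 18.8 to 20.6 CPM and 5110 to 9220 CPM. It was the one D273-10B library numbered from 66, so the fits within the series numbered from 69 leave it out.

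Few differences between strains were called for the biotin genes. The single called difference was that of BIO5, the KAPA importer, which was higher in D273-10B (7.87 ± 2.82 CPM) than in BY4741 (3.1 ± 1.0 CPM; SD, n = 4 each). In the same pair BIO2 averaged 21.8 CPM in D273-10B and 51.2 CPM in BY4741, and BIO3 2.94 CPM in D273-10B and 5.25 CPM in BY4741, differences that missed the threshold. BIO4 and VHT1 had no called difference. No biotin gene passed the test of any difference among the 5 strains (edgeR's quasi-likelihood test with Benjamini-Hochberg adjustment over 6119 genes), where 28.4% of all genes tested were called. Adjusted p-values were 0.0741 for BIO5, 0.0808 for VHT1, 0.139 for BIO3, 0.189 for BIO2 and 0.9 for BIO4. At an unadjusted p under 0.05, 2 of the 5 genes passed, BIO5 and VHT1, where 43.9% of all genes did. DESeq2 called the same pair after adjustment (0.0282 for BIO5 and 0.0403 for VHT1), where it called 41.4% of the genes to which it gave an adjusted p. In the 50 tests of a gene between 2 strains, 1 was called, which is 2% against 8.38% over all genes and pairs. By pair, the share of all genes called was 2.11% for W303 against BY4741, 2.63% for W303 against CEN.PK2, 10.6% for W303 against D273-10B and 10.9% for W303 against RM11-1a. It was 5.47% for RM11-1a against BY4741, 6.93% for RM11-1a against CEN.PK2 and 18.4% for RM11-1a against D273-10B. It was 14.5% for D273-10B against BY4741, 5.61% for D273-10B against CEN.PK2 and 6.65% for CEN.PK2 against BY4741. A total of 12 of the 50 tests had an unadjusted p under 0.05, the same share as the 24% over all genes and pairs. Of these, 10 involved D273-10B, which takes part in 4 of the 10 pairs and in 46.4% of the tests of all genes with an unadjusted p under 0.05. The replicates are numbered in the labels, which do not say that they are separate cultures, so p-values measure the spread between these libraries, which may be technical.

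**Figure D1:**
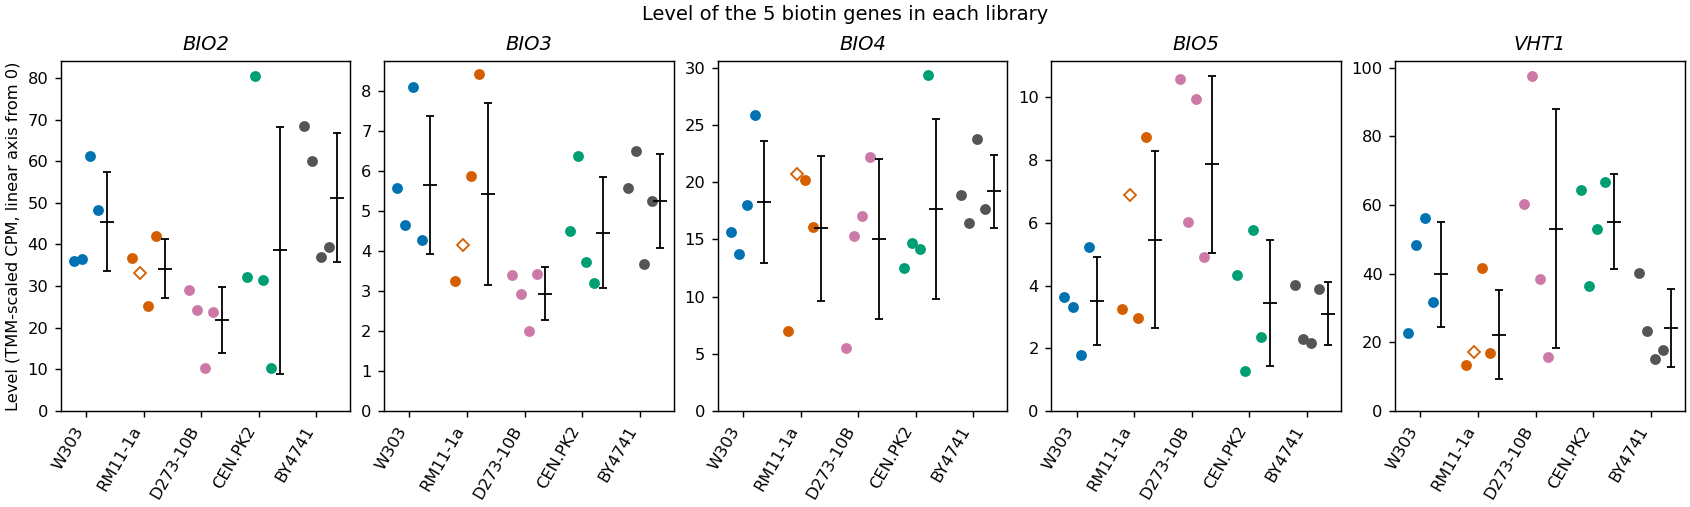
Level of each biotin gene (TMM-scaled CPM, linear axis from 0) in the 4 libraries of each strain, 1 point per library, with the mean and SD as a bar beside them; the open diamond is RM11-1a replicate 2. The D273-10B points lie at 10.4 to 29 CPM for BIO2 and 4.91 to 10.6 CPM for BIO5, on opposite sides of the BY4741 points for these genes.

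BIO5, the importer of the KAPA intermediate, had the lowest level per kilobase of the 5 genes in the mean over the 20 libraries, although in D273-10B its mean per kilobase lay above that of BIO3. In W303 it was at 3.64, 3.32, 1.8 and 5.22 CPM. In RM11-1a it was at 3.26, 6.89, 2.98 and 8.74 CPM. In D273-10B it was at 10.6, 6.03, 9.96 and 4.91 CPM. D273-10B thus held the highest library, and its lowest still had more than any BY4741 library. In CEN.PK2 BIO5 was at 4.33, 1.28, 5.78 and 2.36 CPM, where the lowest library had 2 counts and lay under the floor of 3 counts (1.92 CPM in that library). In BY4741 it was at 4.03, 2.29, 2.17 and 3.89 CPM. D273-10B (7.87 ± 2.82 CPM) exceeded BY4741 (3.1 ± 1.0 CPM; SD, n = 4 each) by 1.33 on the log2 scale (SE 0.44, 95% interval 0.41 to 2.25), a fold of 2.51, with an edgeR adjusted p of 0.0471. In this pair of strains 14.5% of all genes were called. The 4 libraries of D273-10B all lay above the 4 of BY4741.

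That call was lost in 16 of 29 alternative fits, 12 of them among the 20 in which a single library was dropped. Its log2 fold change stayed between 1.17 and 1.53 in those 29 fits, and its adjusted p ran from 0.0231 to 0.136. Among the libraries numbered from 69, which include 3 of D273-10B and 2 of BY4741, the difference was 1.19 (SE 0.65, adjusted p 0.198). Without D273-10B replicate 1 it was 1.17 (adjusted p 0.061). That library had the highest BIO5 level of its strain, at 10.6 CPM. Leaving it out, as the series fits also do, lowers the D273-10B mean by construction, so these values are no test of the difference. The log2 fold change of BIO5 in D273-10B over CEN.PK2 was 1.08 (95% interval 0.2 to 1.97, adjusted p 0.138), and 0.79 (adjusted p 0.4) among the libraries numbered from 69. In W303 over D273-10B it was -1.14 (95% interval -2.04 to -0.25, adjusted p 0.0906), and -0.92 (adjusted p 0.283) among them. Neither passed the threshold. RM11-1a came second in the order of BIO5 means with 5.46 ± 2.82 CPM (n = 4), or 4.99 ± 3.25 CPM without replicate 2 (n = 3), and its log2 difference from D273-10B was -0.53 (adjusted p 0.394; -0.65 and 0.341 without replicate 2). The means of W303, CEN.PK2 and BY4741 followed at 3.5, 3.44 and 3.1 CPM, and no neighbours in this order passed the test.

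BIO2, the biotin synthase, had its lowest mean in D273-10B. In W303 it was at 36, 36.5, 61.2 and 48.2 CPM. In RM11-1a it was at 36.6, 33, 25.2 and 41.9 CPM. In D273-10B it was at 29, 24.2, 10.4 and 23.7 CPM, all below every library of W303 and BY4741. In CEN.PK2 it was at 32.2, 80.5, 31.5 and 10.2 CPM, which spans both the highest and the lowest of the 20 libraries. In BY4741 it was at 68.5, 60, 36.9 and 39.5 CPM. D273-10B averaged 21.8 ± 7.99 CPM and BY4741 51.2 ± 15.5 CPM (SD, n = 4 each), a log2 fold change of -1.23 (SE 0.44, 95% interval -2.15 to -0.3) with an edgeR adjusted p of 0.0667, so it was not called. The same difference was -1.69 (SE 0.46) among the libraries numbered from 69, with an adjusted p of 0.0298. W303 over D273-10B was 1.05 (95% interval 0.13 to 1.97, adjusted p 0.123), and 1.51 (adjusted p 0.038) among those libraries. In that series the D273-10B libraries had 6143878 to 12103234 total counts. Those of BY4741 had 2507091 and 2847050, and those of W303 1945194 and 4152414. BIO2 was lower in deeper libraries over the study (correlation -0.68 with the log10 total count), so depth and strain cannot be told apart within that series. Without D273-10B replicate 1 alone, D273-10B over BY4741 was -1.4 (adjusted p 0.0315) and W303 over D273-10B 1.2 (adjusted p 0.0518). That library had the highest BIO2 level of its strain. Leaving it out, as the series fits also do, widens both differences by construction, so these values are no test of them. The BIO2 means ranked, from high to low, BY4741, W303, CEN.PK2, RM11-1a and D273-10B, and no neighbours in that order passed the test, with adjusted p-values of 0.319 to 0.903.

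BIO3, the KAPA aminotransferase, also had its lowest mean in D273-10B. In W303 it was at 5.57, 4.65, 8.11 and 4.27 CPM. In RM11-1a it was at 3.26, 4.16, 5.87 and 8.43 CPM. In D273-10B it was at 3.41, 2.92, 1.99 and 3.42 CPM, below every library of W303 and BY4741. In CEN.PK2 it was at 4.49, 6.39, 3.73 and 3.21 CPM, and in BY4741 at 5.58, 6.49, 3.68 and 5.24 CPM. These groups overlap with each other, and CEN.PK2 and RM11-1a overlap with D273-10B. W303 over D273-10B had a log2 fold change of 0.92 (95% interval 0.22 to 1.61, edgeR adjusted p 0.0797). RM11-1a over D273-10B had 0.91 (95% interval 0.22 to 1.59, adjusted p 0.0591), and 1.01 (adjusted p 0.0504) without RM11-1a replicate 2. D273-10B over BY4741 had -0.83 (95% interval -1.53 to -0.12, adjusted p 0.105). Among the libraries numbered from 69 the first was 1.13 (adjusted p 0.0877) and the last -1.09 (adjusted p 0.106), and no series holds 2 libraries of both RM11-1a and D273-10B. None of these 3 differences was called in the edgeR fit of all libraries with TMM scaling. RM11-1a over D273-10B was called without RM11-1a replicate 1 (1.14, adjusted p 0.0252), D273-10B replicate 1 (1.02, adjusted p 0.0414), CEN.PK2 replicate 2 (adjusted p 0.0432) or W303 replicate 3 (adjusted p 0.0483), and with DESeq2 size factors (adjusted p 0.047) or the DESeq2 test (adjusted p 0.0296). W303 over D273-10B was called without D273-10B replicate 1 (0.98, adjusted p 0.0417). RM11-1a replicate 1 had the lowest BIO3 level of its strain, and D273-10B replicate 1 lay above its strain mean of 2.94 CPM. Leaving either out moves the strain means apart by construction, so the values without them are no test of the differences. The other BIO3 means ran from 4.45 CPM in CEN.PK2 to 5.65 CPM in W303.

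BIO4, the dethiobiotin synthetase, had means within a narrow range in the 5 strains. It averaged 18.3 ± 5.34 CPM in W303, 16 ± 6.34 CPM in RM11-1a (14.4 ± 6.76 CPM without replicate 2, n = 3), 15 ± 6.98 CPM in D273-10B, 17.7 ± 7.86 CPM in CEN.PK2 and 19.2 ± 3.2 CPM in BY4741 (SD, n = 4). Its libraries spanned 5.52 to 29.4 CPM, both ends far from the strain means. Its largest log2 difference between strains was -0.36 for D273-10B over BY4741 (95% interval -1.18 to 0.45, adjusted p 0.573), an interval that still allows a fall of more than a log2 unit. It was 0.08 (adjusted p 0.871) among the libraries numbered from 69. Without D273-10B replicate 1, the lowest BIO4 library at 5.52 CPM, it was -0.08 (adjusted p 0.887). Leaving that library out, as the series fit also does, raises the D273-10B mean by construction, so neither value is a test of the difference. Differences between strains made up 10.8% of the variance of the BIO4 log2 level, against a median of 38.9% over all genes tested and 36.5% to 43.8% for the other 4 biotin genes.

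VHT1, the biotin transporter, had the widest spread between libraries of the same strain among the 5 genes, an SD of 0.72 on the log2 scale against a median of 0.56 over all genes. In W303 it was at 22.8, 48.3, 56.3 and 31.8 CPM. In RM11-1a it was at 13.3, 17.1, 41.7 and 17 CPM, 3 low libraries and 1 high. In D273-10B it was at 60.4, 97.5, 38.4 and 15.8 CPM, which covers nearly the whole range of the study. In CEN.PK2 it was at 64.3, 36.4, 53.1 and 66.6 CPM, and in BY4741 at 40.3, 23.3, 15.2 and 17.9 CPM. The CEN.PK2 libraries were mostly higher than those of RM11-1a and BY4741, with an overlap of the lowest CEN.PK2 library in each case. RM11-1a over CEN.PK2 had a log2 fold change of -1.31 (95% interval -2.3 to -0.32, edgeR adjusted p 0.107), or -1.2 (adjusted p 0.193) without RM11-1a replicate 2. RM11-1a over D273-10B had -1.25 (adjusted p 0.0722), or -1.14 (adjusted p 0.143) without that replicate. CEN.PK2 over BY4741 had 1.2 (95% interval 0.21 to 2.2, adjusted p 0.134), and 0.51 (adjusted p 0.834) among the libraries numbered from 69. D273-10B over BY4741 had 1.15 (95% interval 0.15 to 2.14, adjusted p 0.112), and 0.7 (adjusted p 0.424) among those libraries. None passed the threshold. When each library was left out in turn, these values passed it in a few fits. Without D273-10B replicate 4, the lowest VHT1 library of its strain, D273-10B over BY4741 was 1.44 (adjusted p 0.0331) and RM11-1a over D273-10B -1.55 (adjusted p 0.0184). Without RM11-1a replicate 3, the highest of its strain, RM11-1a over D273-10B was -1.75 (adjusted p 0.0283) and RM11-1a over CEN.PK2 -1.81 (adjusted p 0.0413). Leaving out the extreme value of a strain moves its mean and narrows its spread by construction, so these 4 values are no test of the differences.

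Without RM11-1a replicate 2, none of the 20 contrasts of a biotin gene with RM11-1a was called, as with it, and the largest shift of a log2 fold change was 0.15. Without D273-10B replicate 1, 3 of the 20 contrasts with D273-10B were called, against 1 with it. Calls over all genes rose too without that library. They went from 889 to 1904 for D273-10B against BY4741 and from 343 to 763 against CEN.PK2. For RM11-1a against D273-10B they went from 1127 to 1599, and for W303 against D273-10B from 650 to 2288. Without CEN.PK2 replicate 4, 0 of the 20 contrasts with CEN.PK2 were called, as with it. Libraries of 2 strains did not overlap in 5 of the 50 comparisons (10%), against 15.7% over all genes and pairs, 14.8% for D273-10B against BY4741 and 11% for W303 against D273-10B. All 5 of these involved D273-10B: D273-10B had all BIO5 libraries above, and all BIO2 and BIO3 libraries below, those of BY4741, and W303 had all BIO2 and BIO3 libraries above those of D273-10B.

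**Figure D2:**
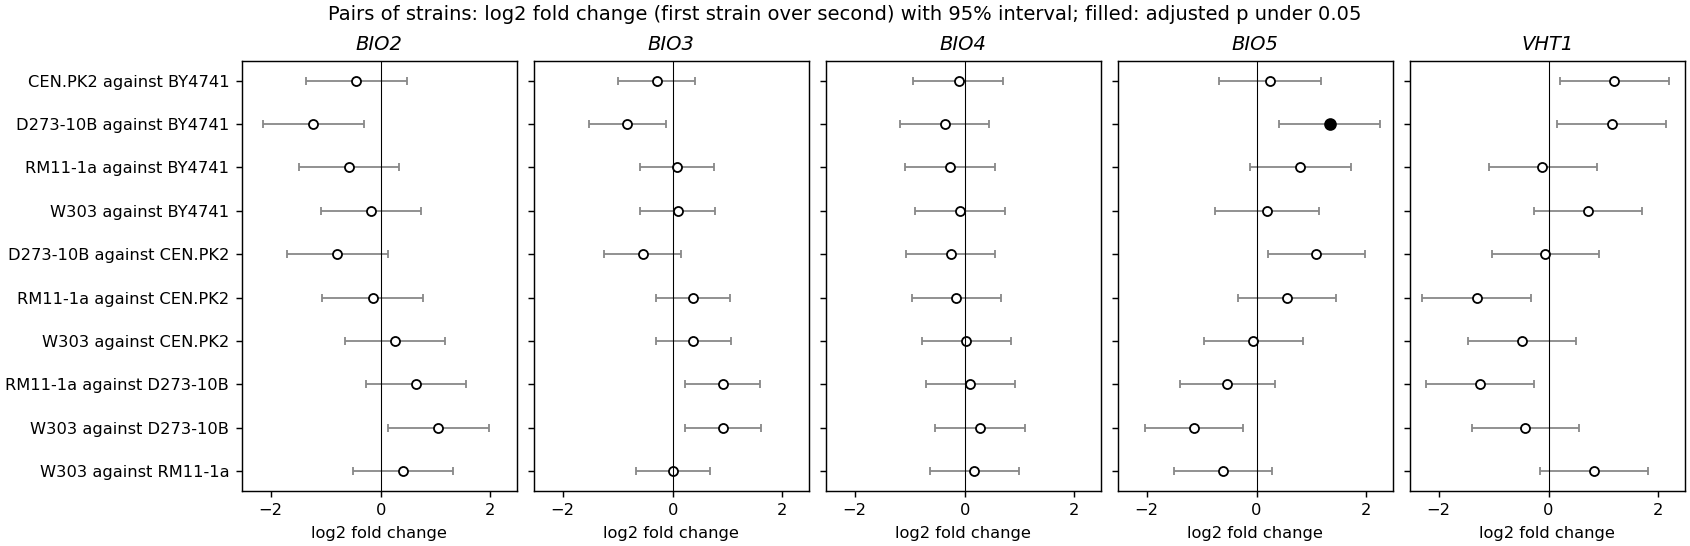
Log2 fold change of each biotin gene in the 10 pairs of strains (first strain over second), with 95% intervals; a filled point has an adjusted p under 0.05. The one filled point is BIO5 in D273-10B against BY4741, at 1.33, and every BIO4 point lies within 0.36 of 0.

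Per kilobase of coding length the 5 genes fell into a higher and a lower set. Over the 20 libraries the mean level per kilobase was 33.9 CPM for BIO2, 24.1 CPM for BIO4 and 21.8 CPM for VHT1, against 3.29 CPM for BIO3 and 2.77 CPM for BIO5. The 3 genes of the chromosome XIV cluster were therefore not at a common level, and BIO4 exceeded its divergent neighbour BIO3 in every library, by 3.28 to 18.5 times per kilobase. The level of BIO5 relative to BIO2 within a library, per kilobase, was 0.0197 to 0.0725 in W303, 0.0595 to 0.14 in RM11-1a (0.0595 to 0.139 without replicate 2), 0.139 to 0.641 in D273-10B, 0.0106 to 0.155 in CEN.PK2 and 0.0256 to 0.066 in BY4741. The importer was thus nearest to the synthase in D273-10B, whose range lay above those of W303 and BY4741 and overlapped those of RM11-1a and CEN.PK2. Without RM11-1a replicate 2 the ranges of D273-10B and RM11-1a met at 0.139. BIO2 was lower and BIO5 higher in deeper libraries (correlations of -0.68 and 0.44 with the log10 total count). The lowest ratios of W303, CEN.PK2 and BY4741 came from libraries of 1945194, 1311322 and 2507091 total counts. Those libraries held 4, 2 and 6 BIO5 counts. Every D273-10B library had at least 6143878 total counts. The part of depth in this ratio was not tested. The ratio was formed after the levels had been seen, and its differences between strains were not tested.

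**Figure D3:**
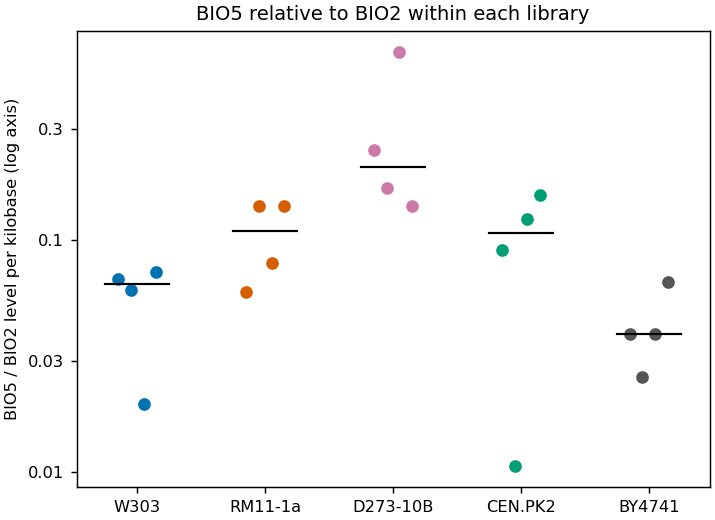
Level of BIO5 divided by that of BIO2, both per kilobase, in each library (log axis), with a line at the median of each strain. The D273-10B libraries lie at 0.139 to 0.641 with a median of 0.206, and the BY4741 libraries at 0.0256 to 0.066 with a median of 0.0394.

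Across the 20 libraries, which share strains and library preparation, BIO2 and BIO3 moved most alike, with a Pearson correlation of log2 CPM of 0.74 (Spearman 0.73), and 0.63 after each strain's mean was removed. Without the 2 libraries farthest from the median of BIO2 these were 0.64 and 0.55. The middle 90% of all gene pairs had correlations of -0.63 to 0.66 over the libraries and -0.67 to 0.71 within strains, so the value within strains lay inside that range. The divergent pair BIO3 and BIO4 had 0.11, the adjacent pair BIO4 and BIO5 had -0.28, and BIO5 and VHT1, the genes with their own Vhr1 element, had 0.04. Over all 10 pairs of biotin genes the correlations outside BIO2 and BIO3 ran from -0.43 to 0.11. Levels of BIO2 also moved with the depth and the length trend of the libraries. Its correlation with the log10 total count was -0.68, and with the slope of a library's deviations on gene length it was 0.64 within strains, a value at the 80th percentile of all genes. BIO4, the shortest of the 5 genes at 714 bases, had -0.78 with that slope within strains, at the 10th percentile. With 2 libraries left out this was -0.61. Without removing strain means the BIO4 correlation was -0.49, and -0.06 with 2 libraries left out. The part of the length trend in the differences between strains was addressed only by the gene length offset given in the closing section. Thinning evens the number of counts but leaves a gene's share of its library as it was. The part of depth in these levels was therefore not tested.

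**Figure D4:**
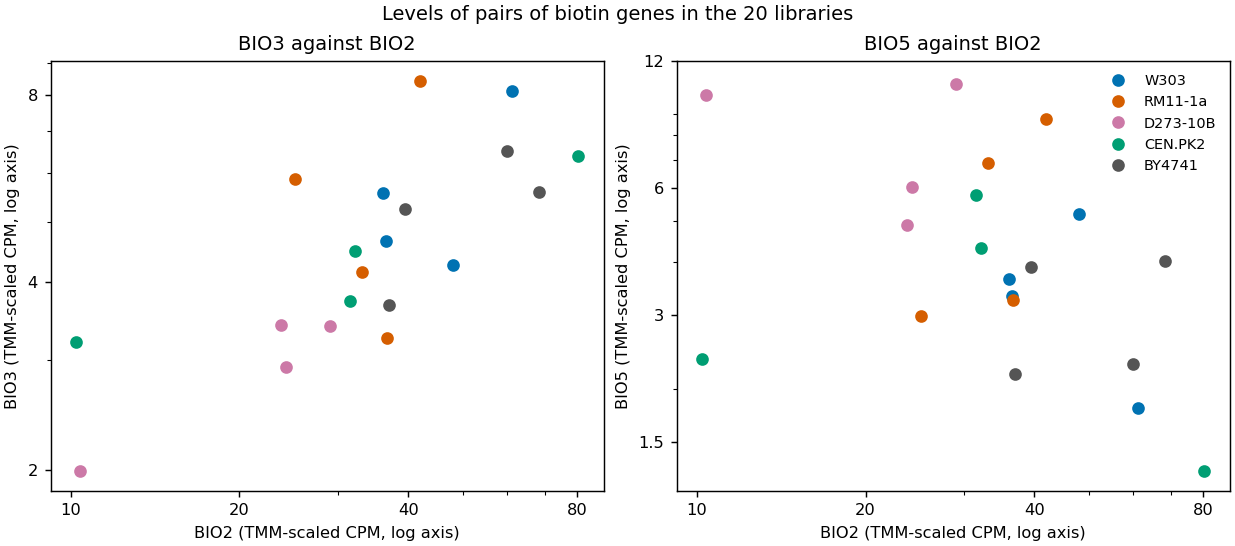
Level of BIO3 (left) and BIO5 (right) against BIO2 in the 20 libraries, coloured by strain (TMM-scaled CPM, log axes). BIO3 follows BIO2 with a correlation of 0.74, while the D273-10B libraries lie at low BIO2 and mostly high BIO5.

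**Figure D5:**
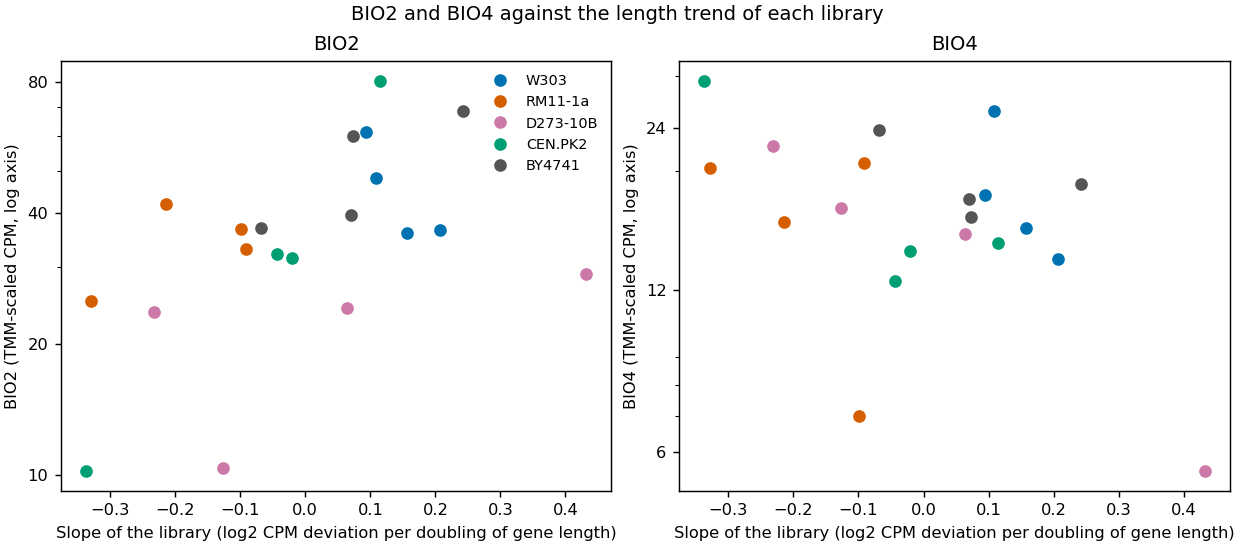
Level of BIO2 (left) and BIO4 (right; TMM-scaled CPM, log axis) against the library's slope of log2 CPM deviation per doubling of gene length. Over the 20 libraries as plotted the correlation is 0.53 for BIO2 and -0.49 for BIO4, and within strains 0.64 and -0.78. The library at a slope of 0.432 is D273-10B replicate 1.

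The genes with levels most like each biotin gene were taken as the 3 with the highest Pearson correlation over the 20 libraries. For BIO2 they were YPQ2 at 0.95, MCA1 at 0.94 and FMP42 at 0.93. For BIO3 they were YER076C at 0.88, CHS7 at 0.88 and ECM7 at 0.86. For BIO4 they were YMR245W at 0.81, BNS1 at 0.8 and YNL046W at 0.78. For BIO5 they were YMR119W-A at 0.7, YLL056C at 0.68 and IMA5 at 0.66, and for VHT1 RPN2 at 0.79, SLX4 at 0.78 and HEL2 at 0.74. No biotin gene was among the 3 nearest of another. The best correlation of a gene with any other was 0.91 at the median of all genes, with a 5th percentile of 0.76. BIO2 lay above that median, and BIO5 and VHT1 had the lowest best correlations of the 5.

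The enzymes that use biotin were read from the same fit. The list holds BPL1, the ligase that attaches biotin to proteins, and its acceptors ACC1, HFA1, PYC1, PYC2, DUR12 and ARC1, and 6 of its 70 pair tests were called, 3 higher and 3 lower (8.57%, against 8.38% over all genes and pairs). DUR12, the urea amidolyase DUR1,2 that breaks urea down with biotin as cofactor, was at 12.8, 12.5, 21 and 12.8 CPM in D273-10B, against 6.82, 3.82, 3.34 and 4.94 CPM in BY4741. All 4 D273-10B libraries lay above those of BY4741, a log2 fold change of 1.65 (SE 0.29; adjusted p by edgeR 0.00122), a call kept in all 29 alternatives run and, at 1.58 (adjusted p 0.0429), among the libraries numbered from 69. DUR12 was also called higher than in BY4741 in W303, by 1.41 (adjusted p 0.0109), and in RM11-1a, by 1.03 (adjusted p 0.0426; 1.12 and 0.0228 without RM11-1a replicate 2). The call was lost in 3 of 29 alternatives for W303 and in 14 of 29 for RM11-1a. Within series W303 over BY4741 was 1.74 (adjusted p 0.0522) in libraries numbered from 66 and 1.02 (adjusted p 0.403) in those from 69, and RM11-1a over BY4741 was 1.01 (adjusted p 0.413) in those from 66. PYC1, a cytosolic pyruvate carboxylase, was lower in W303 (16.4 ± 4.45 CPM) than in CEN.PK2 (37.1 ± 12.5 CPM), by a log2 fold change of -1.17 (adjusted p 0.0338), and lower in W303 than in D273-10B by -1.06 (adjusted p 0.0237). Among the libraries numbered from 69 these were -0.73 (adjusted p 0.706) and -0.96 (adjusted p 0.107). These calls were lost in 7 and 5 of 30 alternatives, the one against CEN.PK2 also without CEN.PK2 replicate 4 (-0.92, adjusted p 0.145). PYC1 shares 5.26% of its 75-base windows with other places in the genome. BPL1 was lower in RM11-1a than in D273-10B by -1.27 (adjusted p 0.04; -1.41 and 0.0412 without replicate 2), with libraries that overlapped. That call was lost in 11 of 30 alternatives, in which the log2 fold change ran from -1.49 to -0.78 and the adjusted p up to 0.282. ACC1, HFA1, PYC2 and ARC1 had no called difference.

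Of the regulators, Vhr1 is encoded by VHR1 and its paralogue by VHR2. Both were called lower in RM11-1a than in D273-10B, 2 calls among 20 tests, where 18.4% of all genes were called in this pair. VHR1 was at 16, 12.3, 8.67 and 11.1 CPM in RM11-1a, against 33.8, 67.7, 15.5 and 10 CPM in D273-10B, so the strains overlapped. Its log2 fold change was -1.41 (adjusted p 0.0469), and the call was lost in 20 of 30 alternatives, among them the fits without RM11-1a replicate 2 (adjusted p 0.0767) and without D273-10B replicate 1 (adjusted p 0.0537). VHR2 was at 25.6, 26.6, 17.8 and 18.7 CPM in RM11-1a, against 62.6, 39, 43.6 and 42.5 CPM in D273-10B, with no overlap. Its log2 fold change was -1.09 (adjusted p 0.011; -1.18 and 0.0128 without replicate 2), and it lost the call in 2 of 30 alternatives. VHT1, a target of Vhr1, had the same sign in that pair without passing the test, and so did BIO5. The median log2 fold change of all genes there was also negative, at -0.18. The signs did not match in every pair. In W303 over RM11-1a, where none was called, VHR1 was 1.01, VHT1 0.83 and BIO5 -0.61. Without RM11-1a replicate 2, VHT1 was 0.72 and BIO5 -0.48 in that pair. A link between the regulators and these genes was not tested.

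Biotin synthase carries iron-sulfur clusters, and 11 genes of mitochondrial iron-sulfur assembly had 11 calls in 110 tests, 5 higher and 6 lower (10%, near the 8.38% over all genes and pairs). ISU2, a scaffold on which clusters are built, was at 6.93, 7.26, 5.98 and 12.4 CPM in D273-10B, against 23.2, 42.8, 23.2 and 48.8 CPM in CEN.PK2. No D273-10B library reached the CEN.PK2 range, a log2 fold change of -2.09 (SE 0.36; adjusted p by edgeR 0.00127). ISU2 was likewise lower in D273-10B than in BY4741 by -1.44 (adjusted p 0.0113) and lower in D273-10B than in RM11-1a, where RM11-1a over D273-10B was 1.68 (adjusted p 0.0035; 1.77 and 0.00297 without replicate 2). All 3 calls were kept in the 30 alternatives run for each. W303 exceeded D273-10B in ISU2 by 1.22 (adjusted p 0.0342), a call lost in 5 of 30 alternatives. Among the libraries numbered from 69, ISU2 in D273-10B was -1.92 over CEN.PK2 (adjusted p 0.023) and -1.52 over BY4741 (adjusted p 0.0295), and W303 over D273-10B was 1.6 (adjusted p 0.0227). The other 7 calls were in GRX5, SSQ1, JAC1 and ISU1. GRX5, a glutaredoxin, SSQ1, a chaperone, and JAC1, its co-chaperone, serve the transfer of clusters from the scaffold, and their 6 calls all had D273-10B as the higher strain. GRX5 averaged 237 ± 114 CPM in D273-10B and 91.9 ± 17.6 CPM in BY4741 (log2 fold change 1.37, adjusted p 0.0199), and JAC1 31.1 ± 3.24 CPM in W303 and 93.1 ± 52.5 CPM in D273-10B (-1.58, adjusted p 0.0104). D273-10B replicate 1 was the low library for both genes, with GRX5 at 89.2 CPM, inside the BY4741 range, and JAC1 at 29.1 CPM, inside the W303 range, where the other 3 D273-10B libraries had 217 to 355 and 77.2 to 152 CPM. Among the libraries numbered from 69, which leave it out, the differences were 1.71 (adjusted p 0.0171) and -1.95 (adjusted p 0.0105). Leaving out that low library raises the D273-10B mean of both genes by construction, so these values are no test of the differences. The GRX5 call against BY4741 was lost in 4 of 30 alternatives (log2 fold change down to 0.72) and the JAC1 call in 1. W303 over D273-10B in GRX5 was -1.4 (adjusted p 0.0231), lost in 5 of 30, and -1.56 (adjusted p 0.0215) among the libraries numbered from 69. The value in that series also lacks the low D273-10B library, so it is no test of the GRX5 difference either. SSQ1 was higher in D273-10B than in BY4741 by 0.89 (adjusted p 0.0414), a call lost in 11 of 30 alternatives, among the libraries numbered from 69 (1.02, adjusted p 0.0774) and without D273-10B replicate 1 (0.61, adjusted p 0.0923). RM11-1a over D273-10B was -0.85 in SSQ1 (adjusted p 0.041), lost in 13 of 30, and -1.24 in GRX5 (adjusted p 0.0264), lost in 7 of 30. Both of these calls were lost without RM11-1a replicate 2, with adjusted p-values of 0.0629 for SSQ1 and 0.0555 for GRX5. For ISU1, the paralogue of ISU2, RM11-1a exceeded D273-10B by 1.16 (adjusted p 0.0256; 1.29 and 0.0198 without replicate 2), a call lost in 6 of 30 alternatives. ISA1, ISA2, IBA57, NFS1, YAH1 and ARH1 had no call, and neither had SAM1 and SAM2, which make the amino donor of the BIO3 reaction.

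The neighbours of the biotin genes were taken as the 3 annotated genes on each side of each locus. Of these 18 genes 17 were tested, and 4 of them had 12 calls among 170 tests (7.06%, against 8.38% over all genes and pairs). YNR061C, the third gene beyond BIO3, had 6 of those calls and averaged 37.2 ± 6.19 CPM in W303 and 156 ± 19.7 CPM in BY4741 (log2 fold change -2.07, edgeR adjusted p 0.000819), a call kept in the 30 alternatives run and within both series of library numbers (adjusted p 0.0246 and 0.0457). Its 3 calls with RM11-1a were 1.12 over CEN.PK2 (adjusted p 0.0312), 1.18 over D273-10B (adjusted p 0.0125) and -1.9 for W303 over RM11-1a (adjusted p 0.00081). Without RM11-1a replicate 2 these were 0.99 (adjusted p 0.0709), 1.05 (adjusted p 0.0332) and -1.77 (adjusted p 0.00102), so the first was lost, as it was without CEN.PK2 replicate 4 (adjusted p 0.0644). Within a series, W303 over RM11-1a was -1.93 (adjusted p 0.0146). D273-10B over BY4741 was -1.34 (adjusted p 0.00752), or -1.15 (adjusted p 0.0564) among the libraries numbered from 69, and CEN.PK2 over BY4741 was -1.28 (adjusted p 0.0179), or -1.17 (adjusted p 0.289) among them. The adjoining MNT4, a mannosyltransferase gene next to BIO3, was higher in D273-10B than in BY4741 by 0.89 (adjusted p 0.0339), while BIO3 itself had -0.83 in that pair. The MNT4 call was lost in 8 of 30 alternatives and among the libraries numbered from 69 (1.02, adjusted p 0.102). HOL1, the neighbour of BIO5 on its other side, had no call, and its log2 fold change in that pair was 0.65 (adjusted p 0.45). For IMA1, next to BIO2, RM11-1a exceeded D273-10B by 1.61 (adjusted p 0.0106; 1.84 and 0.00361 without replicate 2). ADE6, a purine synthesis gene near VHT1, had 4 calls, all with D273-10B as the higher strain. They were lost in 5 to 13 of 30 alternatives, and RM11-1a over D273-10B (-0.88, adjusted p 0.0378) was lost without RM11-1a replicate 2 (-0.83, adjusted p 0.0772) and turned to 0.13 with the gene length offset. D273-10B over BY4741 was 0.96 (adjusted p 0.0309), or 0.75 (adjusted p 0.119) among the libraries numbered from 69. D273-10B over CEN.PK2 was 1.2 (adjusted p 0.0176), or 1.3 (adjusted p 0.0474) among them, and 1.11 (adjusted p 0.0514) without CEN.PK2 replicate 4. W303 over D273-10B was -1.1 (adjusted p 0.0204), or -1.19 (adjusted p 0.0316) among them.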

How the data were processed

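RNA of 5 strains was made into 20 Smart-seq2 libraries, 4 per strain, and read as 75-base single-end reads, per the labels' protocols. The authors deposited raw counts per gene, whose header names Ensembl identifiers. The submitters' processing notes name STAR and Salmon. Their roles, versions and the strand setting are not given in the sources used here. Columns were joined to samples by library number, and for 2 RM11-1a columns the replicate number follows the sample title. No unnamed rows were found and 0 columns were left unused.

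Tests on the deposited counts used R 4.3.3 and edgeR 4.0.16 (filterByExpr by strain, TMM, quasi-likelihood fit of strain to all 20 libraries, 15 residual degrees of freedom), with Benjamini-Hochberg adjustment over 6119 genes and a threshold of 0.05. Log2 CPM for correlations used a prior count of 2. Levels are TMM-scaled CPM. In data simulated for D273-10B against BY4741 with 200 changed genes, the procedure recovered 0% of 2-fold, 78% of 4-fold and 97% of 8-fold changes. False calls made up 100%, 5.45% and 3.48% of the calls. The real pair had 889 calls, some below 2-fold, such as SSQ1 at a log2 fold change of 0.89. The simulation therefore does not set the smallest change that could be called there. Names and coordinates come from RefSeq R64, which matched 6047 of 7127 genes. Named genes were the 5 members, listed pathway genes, 3 neighbours on each side and the 3 most alike per member, and members and lists were chosen with earlier results of these data known. Alternatives were DESeq2 1.42.0 and its size factors, other filters, the replicate or library series as a block, a gene length offset (spline with 4 degrees of freedom), thinning, fits of 2 strains and each library left out. Fits within a library series, the alternatives for the neighbours and the longer motif window were added after seeing the data. A level of 3 counts was taken as the floor. Errors of counting do not cover PCR copies, since the labels name no molecular identifiers.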

Additional observations from a re-analysis of the deposited data

Results flagged for a closer look

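Of 25 groups of 4 libraries, 2 held a library far from the other 3 by Dixon's criterion, where chance gives about 1 in 20 groups. BIO4 in CEN.PK2 replicate 4 was at 29.4 CPM, against 12.5 to 14.7 CPM in the other CEN.PK2 libraries. This is the library that also stood apart in STE2, and its length slope was the lowest of the 20, at -0.337. VHT1 in RM11-1a replicate 3 was at 41.7 CPM, against 13.3 to 17.1 CPM in the other RM11-1a libraries. Its length slope was close to that of CEN.PK2 replicate 4, at -0.329, and both libraries are numbered from 74. With all libraries the log2 fold change of VHT1 in RM11-1a was -1.31 over CEN.PK2 (edgeR adjusted p 0.107) and -1.25 over D273-10B (adjusted p 0.0722). Without RM11-1a replicate 3 it was -1.81 (adjusted p 0.0413) and -1.75 (adjusted p 0.0283). Dropping the highest value of a strain lowers its mean and its spread by construction, so these p-values are no test of the difference.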

How the results depend on the processing

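Over the 50 pair tests of the biotin genes, 1480 alternative values were computed. None changed direction among called results, 1444 kept their side of the threshold, 20 gained a call and 16 lost one. Of the 8 results that gained a call in some fit, 6 involved D273-10B. That strain takes part in 4 of the 10 pairs and in 58.7% of the calls over all genes in the main fit. The count of calls, 1 in the report, was 2 with DESeq2 size factors, 4 with DESeq2, 3 with the gene length offset, 2 with the replicate block plus that offset, and 0 with a mean of at least 10 CPM (which removes BIO3 and BIO5), with only the 2 strains compared, with the replicate block and with thinned counts; leaving out each library gave 0 to 3. The BIO5 call between D273-10B and BY4741 was lost without each BY4741 library in turn, without D273-10B replicates 1, 2 or 3, without CEN.PK2 replicate 1 and without each W303 library in turn (adjusted p up to 0.136), and with the library series as a block (0.0579). BIO2 in D273-10B against BY4741 gained a call with DESeq2 (0.0286), with that series as a block (0.0419) and without CEN.PK2 replicates 2 or 4 or D273-10B replicate 1 (0.0248, 0.025 and 0.0315). Each library left out there held the highest or lowest BIO2 value of its strain, so those fits are no test of the difference. BIO5 in W303 against D273-10B gained one with DESeq2 (0.0494), the length offset (0.0238) and the block plus offset (0.037), and VHT1 in CEN.PK2 against BY4741 with the offset (0.0415).

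For any difference among strains, 0 biotin genes were called in the report, 2 with DESeq2, 2 with the length offset, 1 with the block plus offset, and 0 to 1 with a library left out. The adjusted p of BIO5 was 0.0282, 0.0213 and 0.0311 in those fits, and that of VHT1 0.0403 and 0.0455 with DESeq2 and the offset. Leaving out a library gave 0.0384 (without CEN.PK2 replicate 2) to 0.363 for BIO2 and 0.0256 (without D273-10B replicate 4) to 0.148 for VHT1. The pathway lists had 19 calls, with 12 when only 2 strains were compared, 12 with the library series as a block, 30 with the length offset and 10 to 21 with a library left out. Over all genes 1736 were called for any difference (1279 to 3090 with a library left out) and 5129 over the pairs, with 7812 by DESeq2, 3336 after thinning and 3662 to 9862 with a library left out; both maxima were without D273-10B replicate 1. By pair the counts over all alternatives were 66 to 778 for W303 against BY4741 (129 in the report), 66 to 398 against CEN.PK2 (161), 214 to 2288 against D273-10B (650) and 259 to 1363 against RM11-1a (664); 73 to 628 for RM11-1a against BY4741 (335), 219 to 830 against CEN.PK2 (424) and 226 to 1599 against D273-10B (1127); 314 to 1904 for D273-10B against BY4741 (889) and 103 to 763 against CEN.PK2 (343); and 187 to 692 for CEN.PK2 against BY4741 (407). The length offset moved the median log2 difference of all genes by -0.13 in D273-10B against BY4741, 0.19 in RM11-1a against D273-10B and -0.14 in W303 against RM11-1a.

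Same-numbered libraries of different strains had correlations of -0.36 to 0.38, with 13 of 40 over 0.1. In all, 4 of 20 libraries correlated best with their own number, so the numbers do not pair the samples. The replicate block is given only here. The median correlation was -0.02 for same-numbered libraries of different strains and -0.03 for differently numbered ones. Libraries of different strains in the same library series had a median of 0.13, and the main fit holds no term for the series. Fits within a library series, chosen after seeing the data, called 2 of 30 results among libraries numbered from 69 and 0 of 15 among those numbered from 66. Both calls were of BIO2, in D273-10B against BY4741 and in W303 against D273-10B, where depth and strain cannot be told apart. The share of all genes called in these fits is not given here, so these counts have no background to be read against. Of the libraries numbered from 74, 1 belonged to CEN.PK2 and 2 to RM11-1a. RM11-1a shares no series with at least 2 libraries of D273-10B or CEN.PK2. Among the neighbours, ADE6 in RM11-1a against D273-10B (-0.88) turned to 0.13 with the length offset and 0.14 with the block plus offset. With a library left out, YGR067C ran from -1.31 to 1.48 in RM11-1a against D273-10B (-0.87 with all) and from -0.91 to 1.78 in W303 against D273-10B (-0.57 with all), both maxima called and without D273-10B replicate 2. The causes of these changes were not tested. Counts limit BIO5 and BIO3 most: thinned to 1311322 counts, libraries held 1 to 14 BIO3 counts.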
